A study of Homo sapiens with 2 samples.

Results

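Erythroid transcription factors and their cofactors were examined as possible sites of ERG binding in F36P cells. The 9 genes were GATA1, KLF1, NFE2, ZFPM1, LDB1, GFI1B, CBFA2T3, BCL11A and IKZF1, taken by name from the 19974 protein-coding genes that RefSeq (GRCh38) places on chromosomes 1 to 22 and X. F36P cells are an established line grown from a human erythroleukaemia. Those labelled ERG overexpression carried the retroviral vector MSCV-PIG-AM-ERG, which adds a copy of ERG, a member of the ETS transcription factors, with an AM tag on it. The cells labelled WT carried the empty MSCV-PIG vector. Puromycin at 1 µg/ml for 4 days selected both. Immunoprecipitation was against the tag, and the cells' own untagged ERG is therefore outside the measurement. The labels give 1 library of each kind in 1 cell line, so no value has a replicate error and no test between AM-ERG and Vector could be made. The measurement is 1 list of 1645 peaks, of which 1564 lie on chromosomes 1 to 22 and X. Each peak has a summit, its highest point, and carries the authors' own fold enrichment over local background and −log10 of p and q (higher is more significant). The list holds no expression values, so the erythroid identity of the cells was not checked here.

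GATA1 is the zinc finger factor that directs erythroid gene expression, and ZFPM1 (also called FOG1) is its cofactor. LDB1 is the bridging protein that joins GATA1 and TAL1 complexes at distant enhancers, and CBFA2T3 (also called ETO2) is the corepressor of those complexes. KLF1 and NFE2 activate globin and other late erythroid genes, while BCL11A represses fetal globin, GFI1B is a repressor of the erythroid and megakaryocytic lineages and IKZF1 (Ikaros) is a zinc finger factor best known in lymphoid cells. ETS factors bind a core of GGAA, and most of them prefer flanking bases such as those of CCGGAAG.

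Peaks lay at CBFA2T3, ZFPM1, LDB1, GFI1B and NFE2, while GATA1, KLF1, BCL11A and IKZF1 had none. Counting summits inside a gene or up to 10 kb from it, 5 of the 9 genes had a peak, where 9.58% of all coding genes did. None of the 15 promoter windows listed for 8 of the genes held a summit, where 1.69% of all 22132 windows did. For GATA1, KLF1, BCL11A and IKZF1 this follows from their having no peak within 10 kb. Among so few windows, none is near the share of all windows and says nothing particular of these genes. The windows of CBFA2T3, LDB1 and ZFPM1 belong to starts inside the gene. The CBFA2T3 and LDB1 peaks lay 58 and 708 bp inside the 5′ end. The 5 genes with a peak had 6 in all, of which 3 had their summit inside the gene and 3 outside it. No test was made of the count, since the genes were chosen by name and with earlier results of these data known. Being listed or not says nothing of whether binding changed a gene's activity.

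Promoter sequences show where the letters of an ETS site do and do not occur near these genes. RefSeq windows (GRCh38.p14) from 250 bases before to 50 bases after a start were matched by symbol for 8 of the 9 genes, with 15 windows in all, and not for NFE2. They are printed 5′ to 3′ on the gene's strand, with each GGAA or its complement TTCC in capitals. The first pair are the windows of the 2 chromosome 16 genes with a peak, which lay outside the window in both cases, at chr16:88941301-88941600 on the minus strand for CBFA2T3 and at chr16:88453030-88453329 on the plus strand for ZFPM1. The third is that of ZC3H18, the gene at the next peak beyond ZFPM1, at chr16:88570153-88570452 on the plus strand, which holds a summit.
CBFA2T3: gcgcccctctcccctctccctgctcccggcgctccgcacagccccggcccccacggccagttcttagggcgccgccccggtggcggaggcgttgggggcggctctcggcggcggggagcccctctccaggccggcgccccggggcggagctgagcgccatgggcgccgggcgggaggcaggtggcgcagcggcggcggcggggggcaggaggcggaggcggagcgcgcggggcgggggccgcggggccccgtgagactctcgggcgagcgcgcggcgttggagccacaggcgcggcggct
ZFPM1: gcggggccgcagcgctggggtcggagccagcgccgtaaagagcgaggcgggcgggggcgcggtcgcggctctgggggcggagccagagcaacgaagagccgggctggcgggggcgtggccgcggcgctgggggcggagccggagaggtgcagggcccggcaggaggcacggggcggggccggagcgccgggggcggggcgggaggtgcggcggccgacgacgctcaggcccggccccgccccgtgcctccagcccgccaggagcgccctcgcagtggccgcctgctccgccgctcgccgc
ZC3H18: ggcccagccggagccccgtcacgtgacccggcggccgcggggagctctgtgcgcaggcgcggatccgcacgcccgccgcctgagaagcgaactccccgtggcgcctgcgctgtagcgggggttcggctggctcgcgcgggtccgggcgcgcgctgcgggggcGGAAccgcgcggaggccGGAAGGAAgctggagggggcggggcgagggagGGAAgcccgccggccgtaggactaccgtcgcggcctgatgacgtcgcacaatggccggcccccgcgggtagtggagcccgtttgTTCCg

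The next pair are GATA1, which had no peak, at chrX:48786340-48786639 on the plus strand, and WDR45, which holds the summit nearest to GATA1, at chrX:49079838-49080137 on the minus strand. The last pair are KLF1, without a peak, at chr19:12887152-12887451 on the minus strand, and LYL1, a partner of the GATA1 and TAL1 complex whose window holds a summit, at chr19:13102809-13103108 on the minus strand.
GATA1: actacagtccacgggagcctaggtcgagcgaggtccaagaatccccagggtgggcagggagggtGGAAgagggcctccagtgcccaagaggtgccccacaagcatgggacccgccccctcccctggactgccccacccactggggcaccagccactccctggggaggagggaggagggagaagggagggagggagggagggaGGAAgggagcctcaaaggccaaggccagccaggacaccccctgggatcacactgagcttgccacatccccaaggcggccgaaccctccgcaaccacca
WDR45: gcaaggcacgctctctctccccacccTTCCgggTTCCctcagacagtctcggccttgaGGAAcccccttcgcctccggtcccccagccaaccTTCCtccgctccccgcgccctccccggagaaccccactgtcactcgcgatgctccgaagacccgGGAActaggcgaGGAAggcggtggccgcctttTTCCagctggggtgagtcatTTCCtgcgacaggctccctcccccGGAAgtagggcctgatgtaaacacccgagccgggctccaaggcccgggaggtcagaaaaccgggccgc
KLF1: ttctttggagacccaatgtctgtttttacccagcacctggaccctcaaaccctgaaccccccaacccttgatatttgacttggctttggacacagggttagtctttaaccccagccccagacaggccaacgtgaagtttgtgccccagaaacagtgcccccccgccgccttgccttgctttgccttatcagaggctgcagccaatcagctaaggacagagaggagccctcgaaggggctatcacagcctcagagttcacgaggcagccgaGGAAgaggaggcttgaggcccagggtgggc
LYL1: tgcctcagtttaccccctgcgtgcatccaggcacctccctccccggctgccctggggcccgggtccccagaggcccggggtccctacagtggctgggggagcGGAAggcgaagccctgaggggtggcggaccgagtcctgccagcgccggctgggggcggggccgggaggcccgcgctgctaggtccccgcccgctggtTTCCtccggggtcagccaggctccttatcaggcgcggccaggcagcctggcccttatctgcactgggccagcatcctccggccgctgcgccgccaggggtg

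The window of CBFA2T3 and that of ZFPM1 had 0 occurrences of GGAA on either strand, although both genes had a peak elsewhere. GATA1 had 2 and KLF1 had 1, whereas ZC3H18 had 5, WDR45 had 9 and LYL1 had 2. The summit was 1 bp from the nearest GGAA in ZC3H18, 29 bp in WDR45 and 19 bp in LYL1. Of the windows printed, CCGGAAG occurred in ZC3H18 and WDR45, and the shorter CGGAAG in LYL1 as well. In each of these windows the GGAA nearest the summit was a different one.

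Across all 15 windows of the erythroid factor genes, 13 held GGAA and 1 held CGGAAG on either strand, in a window of BCL11A (chr2:60550858-60551157). CCGGAAG, which includes CGGAAG, was in 0 of the 15. Of the 374 windows of any coding gene that held a summit, 99.7% held GGAA, 270 (72.2%) held CGGAAG and 57.8% held CCGGAAG. Among all 22132 windows of coding genes 95.2% held GGAA, 23.7% held CGGAAG and 12.8% held CCGGAAG. The median GC content of windows with a summit was 68.7%, against 62.3% in all windows, and the part of base composition in these shares was not tested. The windows of the erythroid factor genes ranged in GC content from 35.3%, in a window of IKZF1, to 83.0%, in those of CBFA2T3 and ZFPM1. GATA1 had 67.7%, LDB1 67.0% and KLF1 57.0%, and the GFI1B windows had 42.3% and 47.3%. Absence of the letters says only that they are not in these windows.

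The GATA letters AGATAA or TGATAA were in 3 of the 15 windows, in 5.08% of those with a summit and in 12.4% of all windows. In KLF1 the match was 1 TGATAA on the opposite strand, in GFI1B 1 TGATAA on the gene's strand, and in IKZF1 3 matches to AGATAA in the window farthest into the gene. LYL1 held 1 of each. Other letters searched on both strands were AGGAAG, which overlaps GGAA (33.5% of all windows), TGTGGT of RUNX factors (11.3%), CANNTG of E-box factors (65.1%), CCACCC of KLF1-like factors (37.7%), GGGCGG of GC boxes (56.3%) and TGANTCA of AP-1 factors (6.15%). The longer NF-E2 motif, which includes TGANTCA, was in 0.321% of all windows. TGGGAA of Ikaros, which includes GGAA, was in 22.7% and TGACCA of BCL11A in 9.31%. GATA1 had CCACCC 3 times, and none of the 15 windows held TGANTCA.

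CBFA2T3 (chromosome 16, 88874858 to 88977207, minus strand) had the strongest site of the 9 genes and the most peaks. Its main peak, at 88976691 to 88977644, had its summit 58 bp inside the 5′ end of the gene, with a fold enrichment of 8.07 over local background. The authors' −log10 p was 20.5 and their −log10 q 15.6. The pileup, the number of fragments stacked at the summit as recovered from fold and p, was 29 (exact 95% Poisson interval 19.4 to 41.6, counting error only) on a background of 2.72. By fold it ranked 104 of the 1564 peaks, so 93.4% were lower. It was also wide, at 954 bp, where the median peak was 390 bp and 98.4% were narrower. This summit lay 35549 bp from the only listed CBFA2T3 promoter window, which belongs to a start inside the gene.

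A second CBFA2T3 peak followed 1971 bp upstream of the main one, at 88978713 to 88979475. Its summit was 1913 bp outside the gene, with a fold of 6.33, a −log10 q of 10.1 and a pileup of 24 fragments on 2.95. At 763 bp it too was wider than most peaks (94.4% were narrower). Upstream beyond 10 kb lay 2 more peaks, 15.3 and 16.2 kb from the gene. They had folds of 3.22 and 5.46, −log10 q of 2.17 and 6.71, and pileups of 17 and 19 fragments. No protein-coding gene other than CBFA2T3 lay within 100 kb of any of these 4 summits.

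Together the 4 summits spanned 16.2 kb. Runs of 4 or more summits within 20 kb, a measure chosen after these peaks were seen, occurred at 5 places on chromosomes 1 to 22 and X. The median background of the CBFA2T3 run was 2.83 fragments, below the 3.52 of all peaks. In the other 4 runs it was 13.0 to 831 fragments. Their nearest coding genes were H3-7 (677903 bp from the middle of 4 summits), CCDC200 (49709 bp) and, for 2 runs, LOC102723475 (376881 to 639368 bp). CBFA2T3 was thus the only run at or under 2 times the median background. With 2 peaks in reach it was also among the 0.686% of coding genes with more than 1.

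**Figure D1:**
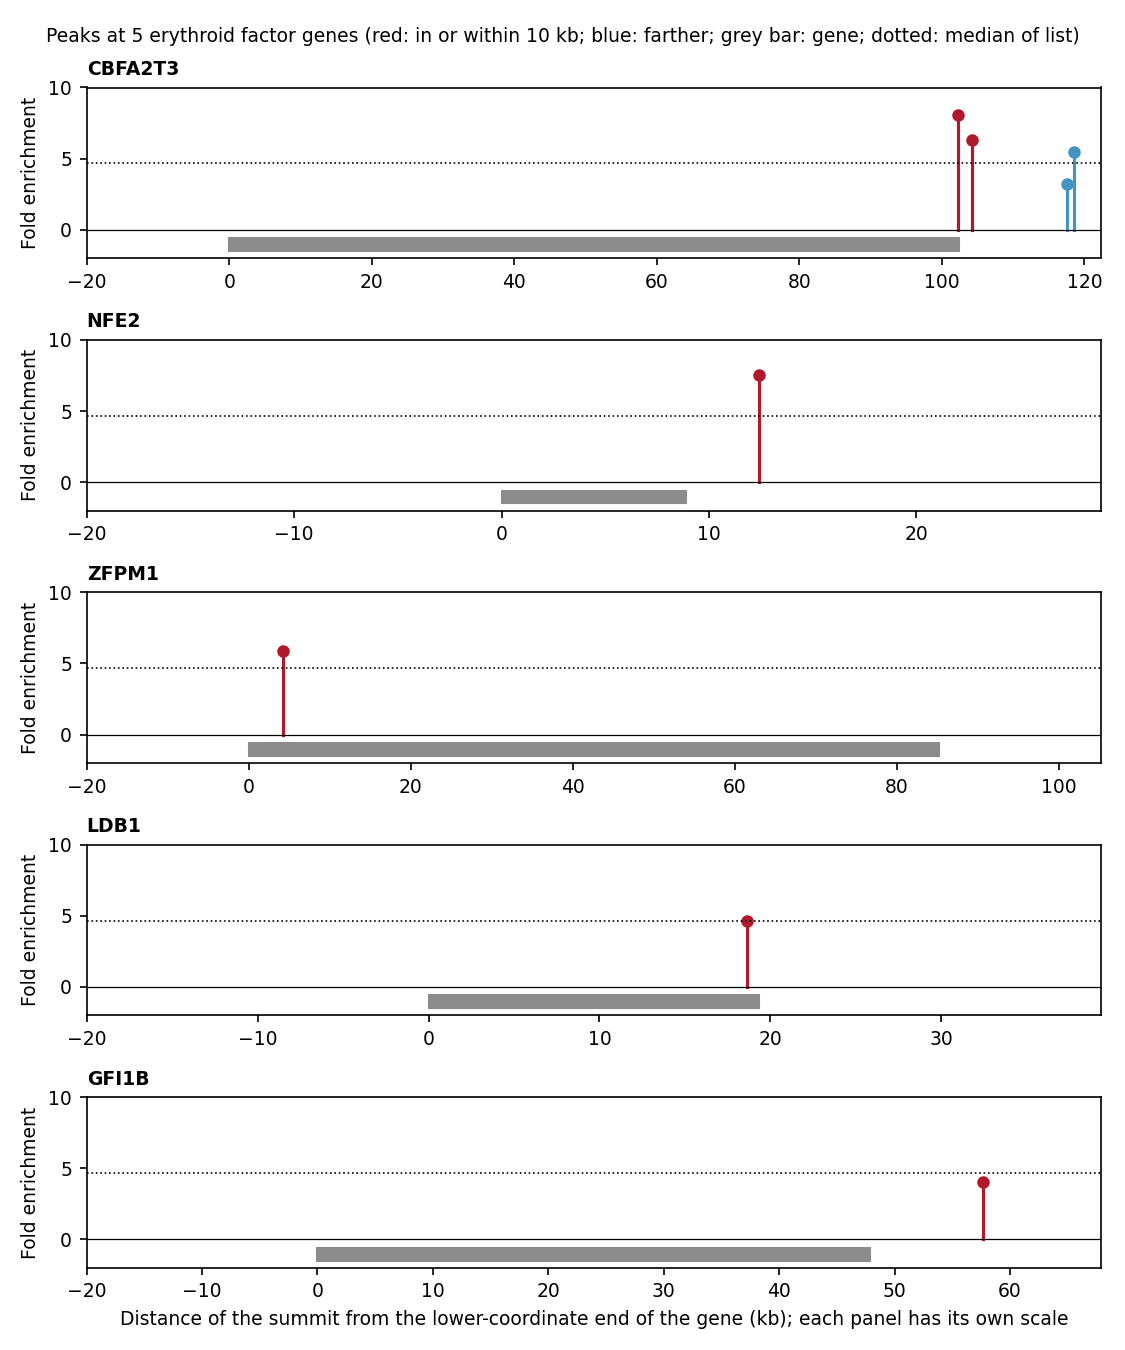
Peaks at the 5 erythroid factor genes that had one. The vertical axis is the authors' fold enrichment, the horizontal axis the distance of the summit in kb from the lower-coordinate end of the gene, and the dotted line the median fold of 4.66. CBFA2T3 has 2 summits at its upper end and 2 farther out, and the summits of NFE2 and GFI1B lie outside the gene.

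NFE2 (chromosome 12, 54292111 to 54301015), which encodes the larger subunit of the NF-E2 activator, had 1 peak at 54304391 to 54304672. Its summit lay 3518 bp beyond the upper end of the gene, with no other gene holding it or ending within 1 kb, and the nearest other coding gene, HNRNPA1, was 17.4 kb away. The fold was 7.53, the −log10 p 18.0 and the −log10 q 13.2. The pileup of 26 fragments (interval 17.0 to 38.1) stood on a background of 2.58. By fold it ranked 148, above 90.5% of peaks, yet it was narrow, at 282 bp. Its pileup interval overlapped that of the main CBFA2T3 peak, so the order of these leading sites is not separated by their counting error.

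ZFPM1 (chromosome 16, 88451769 to 88537031, plus strand) had 1 peak inside the gene, at 88455774 to 88456125. The summit was 4207 bp from the 5′ end and 2647 bp beyond the promoter window printed above. It had a fold of 5.90, a −log10 q of 9.63 and a pileup of 25 fragments (interval 16.2 to 36.9) on 3.41, which placed it above 76.5% of peaks by fold. No other gene shared it, and the nearest other coding gene, ZNF469, was 15.2 kb away. ZFPM1 and CBFA2T3 are 338 kb apart, and 9 peaks lay within 1 Mb of both, so their surroundings are not independent.

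LDB1 (chromosome 10, 102102088 to 102121442, minus strand) had 1 peak at 102120309 to 102120844. Its summit was 708 bp inside the 5′ end, but the site is shared, since it also lay inside PPRC1 and 845 bp from an end of that gene, a coactivator gene. The fold of 4.66 was the median of the list. The −log10 q of 3.90 exceeded that of 26.8% of peaks, and the pileup was 14 fragments (interval 7.65 to 23.5) on 2.22. This was the least significant of the 6 peaks.

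GFI1B (chromosome 9, 132945531 to 132993434, plus strand) had 1 peak at 133002748 to 133003326, 9774 bp beyond its 3′ end. It fell just inside the 10 kb limit, and the next gene in the order, KLF1, fell well outside it at 58.9 kb. The fold was 4.07, above 31.5% of peaks, with a −log10 q of 4.68 and a pileup of 21 fragments (interval 13.0 to 32.1) on 4.40. No other gene held it or ended within 1 kb, and the nearest other coding gene, GTF3C5, was 27.5 kb away. In mouse, Gfi1b is known to be controlled in part by enhancers downstream of the gene.

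The 6 peaks had a median fold of 6.11 and a median background of 2.83 fragments, and none stood on more than 2 times the median background of the list. Of the 6, 4 exceeded the median fold. Only the main CBFA2T3 peak and the LDB1 peak were within 1 kb of an end of their gene, where 61.8% of the 1564 peaks were within 1 kb of an end of some coding gene.

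**Figure D2:**
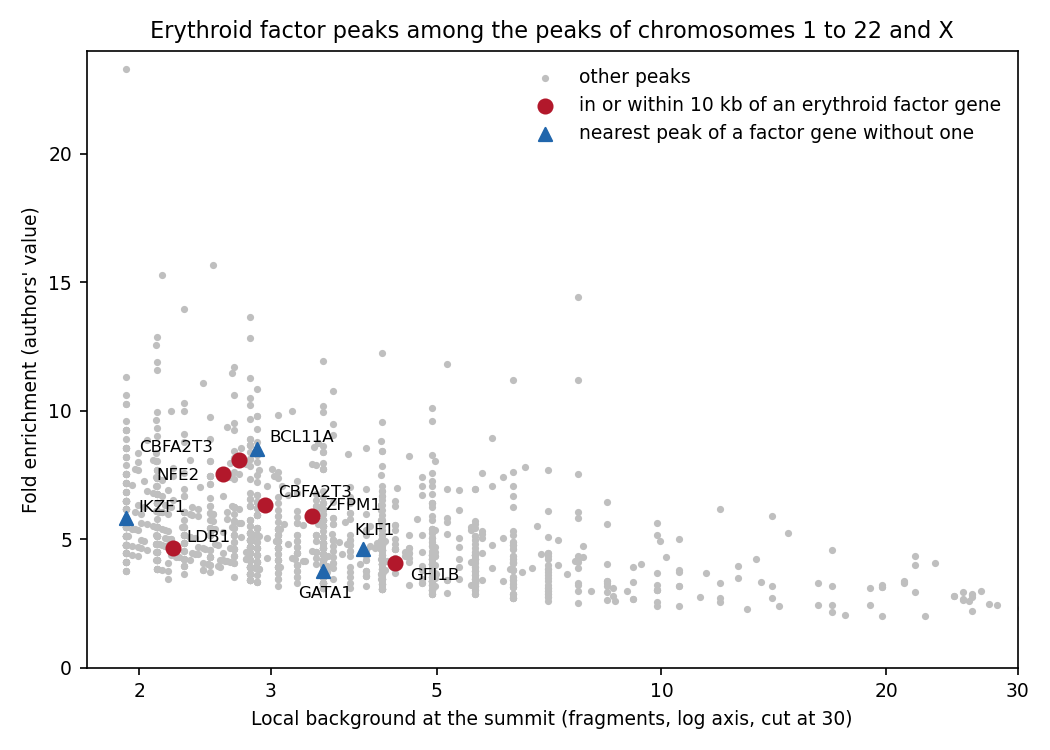
Fold enrichment (vertical) against the local background at the summit in fragments (horizontal, log axis) for peaks of chromosomes 1 to 22 and X. Red circles are the 6 peaks at erythroid factor genes, blue triangles the nearest peaks of the 4 genes without one, and the 85 peaks with a background over 30 fragments are not drawn. The 6 peaks stand on 2.22 to 4.40 fragments, and the CBFA2T3 peak of 8.07 fold is the highest of them.

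KLF1 (chromosome 19, 12884422 to 12887201) had no peak of its own in a neighbourhood that was dense with them. Within 1 Mb of it lay 15 peaks, more than for 99.6% of coding genes (median 1). The nearest summit was 58.9 kb away, and 80.8% of coding genes were farther from one. Within chromosome 19, which held 168 peaks, 64.5% were. On the other side of KLF1 the nearest was 150 kb away, in TRIR, with a fold of 5.75.

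GATA1 (chromosome X, 48786590 to 48794311) had its nearest summit 286 kb away, in WDR45, an autophagy gene, in the promoter window printed above, with 13 coding genes between them. That peak was weak, with a fold of 3.76 and a −log10 q of 2.94, which ranked 1328 of the 1564 peaks. The next lay 4103 kb away in FAM156B. Chromosome X held 21 peaks, and 87.5% of its coding genes were farther from one than GATA1 was, so its distance was short for that chromosome.

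BCL11A (chromosome 2, 60450520 to 60553924) was 624 kb from its nearest summit, with 6 coding genes between. That peak was among the stronger ones, at a fold of 8.52 and a −log10 q of 17.9, and lay in the transcribed pseudogene AHSA2P and the long noncoding RNA gene C2orf74-AS1. IKZF1 (chromosome 7, 50303455 to 50405101) was the most isolated of the 9. Its nearest summit, in TBRG4, lay 5192 kb away, and only 6.57% of all coding genes were farther from a peak. Within chromosome 7, which held 31 peaks, 24.2% were. No peak lay within 1 Mb of IKZF1, as for 32.3% of coding genes.

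CBFA2T3, BCL11A and IKZF1 are of almost the same length, 102350, 103405 and 101647 bp, and had 2, 0 and 0 peaks. Of the 2395 coding genes between 75 and 150 kb, a class chosen after the values were seen, 9.85% had a peak. The median distance from a coding gene to its nearest summit was 412 kb. GATA1 and KLF1 were nearer to a peak than that, and BCL11A and IKZF1 farther. For GATA1 this rests on the WDR45 peak, and at a q of 0.001 or lower its nearest summit was 4103 kb away. A region without a listed peak may hold binding too weak for this list.

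**Figure D3:**
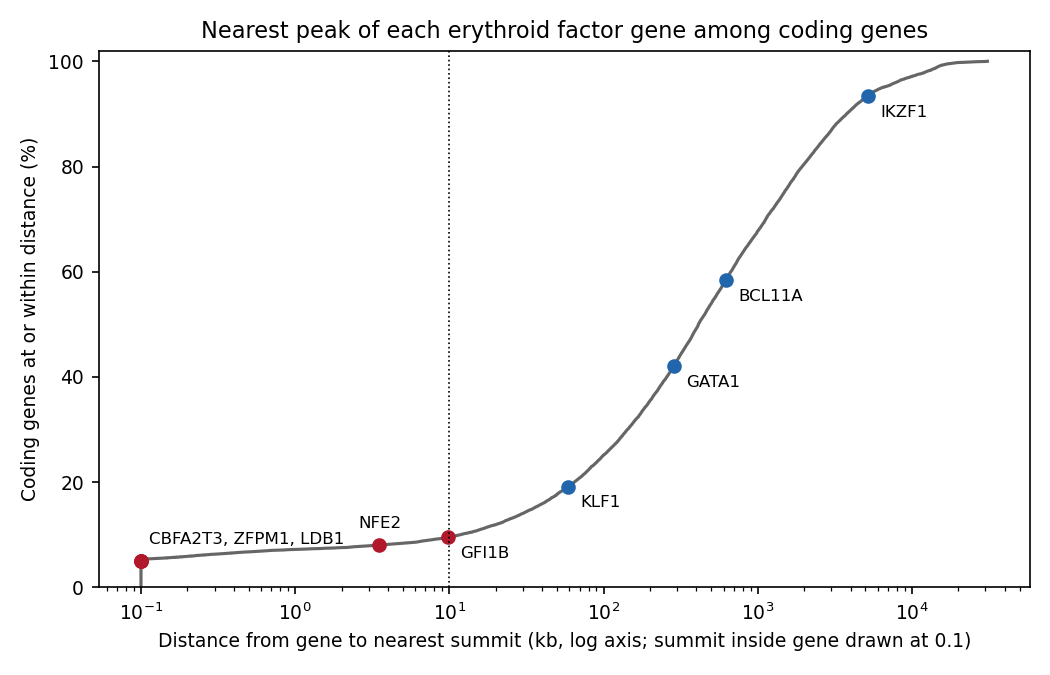
Distance from each coding gene to its nearest summit (horizontal, kb, log axis) against the percent of the 19974 coding genes at or within that distance (vertical). Red points are the erythroid factor genes with a peak within 10 kb (dotted line) and blue points those without, from KLF1 at 58.9 kb to IKZF1 at 5192 kb.

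Genes that work with these factors were then listed by role. The corepressor partners of GFI1B, BCL11A, CBFA2T3, IKZF1 and ZFPM1 had a peak in 8 of 26 (30.8%), where 9.58% of all coding genes did. The count was 4 in the upper 50% of peaks by q, where 5% of all coding genes had one, and 5 in the upper 50% by fold, where 5.49% did. By significance they included DNMT1, the maintenance DNA methyltransferase (fold 5.83), SIN3B (7.01), RCOR1 (5.17), CTBP2 (5.58), HDAC1 (4.05), GATAD2A (4.29) and BCOR (3.54), with the higher fold given where there were 2 peaks. The peaks of DNMT1, HDAC1 and RCOR1 were 290, 168 and 805 bp from an end of their gene, whereas that of SIN3B was 8606 bp away at an end of F2RL3. The DNMT1 peak stood on a background of 7.74 fragments, over 2 times the median. In the complex of KDM1A, the lysine demethylase that GFI1B recruits, RCOR1 and HDAC1 had a peak, while KDM1A itself (nearest 447 kb), RCOR2 (279 kb) and HDAC2 (2450 kb) had none. Of the NuRD subunits, which IKZF1, BCL11A and ZFPM1 recruit, GATAD2A and HDAC1 had a peak. Among those without one were CHD4 (76.6 kb), MBD2 (1138 kb), MBD3 (313 kb) and MTA2, which was 11.0 kb from one.

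In the GATA1, TAL1 and LDB1 complex and its partners 2 of 12 (16.7%) had a peak, where 9.58% of all coding genes did. The 2 were LYL1, with folds of 10.1 and 6.68, and TCF4 with 5.82. The fold of 10.1 belongs to a summit at an end of TRMT1. TAL1 (1412 kb), LMO2 (160 kb), GATA2 (63.2 kb), RUNX1 (1271 kb), TCF3 (253 kb), TCF12 (30.7 kb) and SSBP3 (1005 kb) had none. The 9 genes were counted apart. Of those that belong to the complex or work with it, LDB1, CBFA2T3 and ZFPM1 had a listed site and GATA1 had none. Of the NF-E2 partners 1 of 5 (20.0%) had a peak, MAFG, at 4.18 fold, 7827 bp from the gene and at an end of PCYT2. MAFK, which also pairs with NFE2, was 26.4 kb from one in INTS1.

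Paralogs of the 9 factors had a peak in 3 of 36 (8.33%), near the share of all coding genes. They were IKZF4, KLF12 and NFE2L1. IKZF4 had 2 peaks, of 6.27 fold 3598 bp away at an end of RPS26 and of 5.38 fold 122 bp inside its own end. KLF12 had 2 deep inside the gene (4.72 and 2.74 fold), and the NFE2L1 peak of 5.17 fold was 566 bp outside it and inside the neighbouring gene COPZ2. None of GATA2, GATA3, GATA4, GATA5 and GATA6 had a peak, nor did LDB2, ZFPM2, GFI1, BCL11B, CBFA2T2 and RUNX1T1. NFE2 and its paralog NFE2L1 both had a listed peak, though NFE2L2 and NFE2L3 had none. The named paralogs of LDB1, ZFPM1, GFI1B and CBFA2T3 (LDB2, ZFPM2, GFI1, CBFA2T2 and RUNX1T1) had none, where 9.58% of all coding genes had one. Among so few genes, none is near that share, and the same holds for the GATA paralogs.

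Other erythroid transcription factors had a peak in 3 of 18 (16.7%), where 9.58% of all coding genes did. They were NFIX, E2F2 (5.17) and FOXO3 (4.28). The E2F2 and FOXO3 peaks were 154 and 636 bp inside the gene's end. The NFIX peaks, of 10.1 and 6.68 fold, are those counted for LYL1, which lies between NFIX and both summits. MYB (1332 kb), SOX6 (615 kb), ZBTB7A (22.5 kb) and NFIA (3503 kb) had none. Erythroid target genes had a peak in 2 of 44 (4.55%), EPOR (11.2 and 4.75), the erythropoietin receptor gene, and BCL2L1 (9.99 and 5.40), which encodes an anti-apoptotic protein. The EPOR peaks stood on backgrounds of 7.74 and 7.85 fragments, over 2 times the median. None of the 9 globin genes had a peak, which for so few genes is near the 9.58% of all coding genes. They lie on chromosomes 11 and 16, and those on each chromosome share their nearest summit, so they are not separate loci. The nearest summit was 472 kb from HBA1 and 2825 kb from HBB, and ALAS2, the erythroid enzyme of heme synthesis, was 1587 kb from one. Over the 6 lists 19 of 140 distinct genes (13.6%) had a peak, beside the 9.58% of all coding genes.

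**Figure D4:**
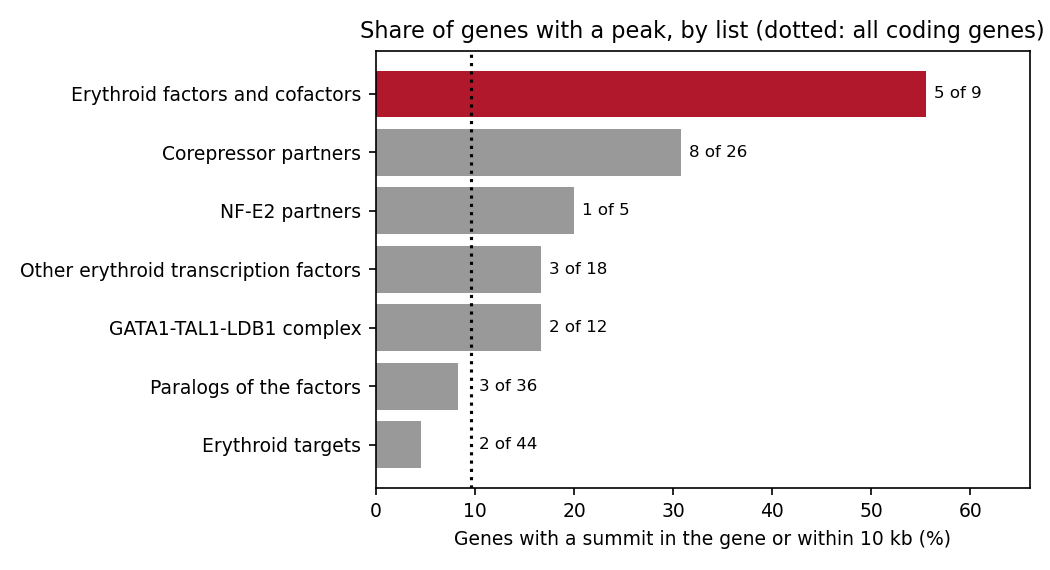
Percent of genes that had a peak at 10 kb or less, for the erythroid factors and 6 lists of related genes, with counts beside the bars. The dotted line is the 9.58% of all coding genes. The erythroid factors stand at 5 of 9 and the corepressor partners at 8 of 26, and the paralogs and erythroid targets lie below the line.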

How the data were processed

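The labels' protocols describe fixation of 10000000 cells in 1% formaldehyde, a 20 minute digestion with micrococcal nuclease, and immunoprecipitation from 10 µg of chromatin. The authors used Bowtie2, MACS2 and deepTools with hg38, per the submitters' processing notes. The sources used here give neither versions and settings nor which library served as treatment or control, and the peak names carry 1 alignment. The deposited list gives a score, a fold enrichment (ratio to local background), the −log10 of the p-value and q-value, and a summit offset in bp, with the largest q at 0.0474. These are the authors' values and describe or rank peaks within the list only. Coordinates are 1-based.

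Pileup and local background were recovered, with 1 added to each before their ratio gives the fold, and with p read as the upper tail of a Poisson distribution. The recovered values returned 100% of deposited p within 0.001 in log10. The number of reads per library is unknown, and pileups (median 21, from 10) set the precision. Positions came from RefSeq GRCh38.p14, with strand taken from the promoter table. Genes named were the 9 genes, genes at their summits or nearest peaks, up to 8 per related list, and paralogs or complex members without a peak. Neighbouring genes, genes at the next peaks, and the other erythroid factors and targets named without a peak were added after their values were seen. Some genes that the rule names are not reported here. The 9 genes and all lists were chosen with earlier results of these data known. Alternatives covered window, overlap, threshold, background, the gene a peak is given to and motif strand. The recovery of pileup and background and the distance from a gene to its nearest summit were tested on simulated data. Calculations ran in Python 3.11.15 with SciPy 1.17.1, pandas 2.3.3 and numpy 2.4.6, and plots in matplotlib 3.10.9.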

Additional observations from a re-analysis of the deposited data

How the results depend on the processing

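No paired analysis was possible because AM-ERG and Vector are single libraries and the deposited list does not separate them. Of the 9 genes, 3 had a peak when the summit had to be in the gene (5% of all coding genes) and 3 within 1 kb (7.23%), CBFA2T3, LDB1 and ZFPM1 in both, as narrower windows imply. The count was also 3 when each peak went to the gene with an end within 1 kb or, failing that, to those holding its summit (the same genes) and 3 in the upper 50% of peaks by q (CBFA2T3, NFE2 and ZFPM1), where the share of all coding genes was 5.93% and 5%. The other 7 of 11 alternatives gave 4 to 6. They were 4 at 5 kb (8.38%) and in the upper 50% by fold (5.49%), both without GFI1B, and 6 at 100 kb (25.1%), with KLF1. They were 5 at 50 kb (17.7%), by any overlap (9.66%), at a q of 0.001 or lower (8.18%) and without high background (9.14%). The related lists, 19 of 140 genes together, had 33 at 50 kb (17.7%) and 44 at 100 kb (25.1%), as wider windows imply. Of 54 values for single lists, 35 stayed close to the first count. The NF-E2 partners were at 0 at 5 kb or less and under each stricter threshold, the GATA1, TAL1 and LDB1 list at 1 with the summit in the gene, and the erythroid targets at 1 without high background. The nearest summit was unchanged in 12 of 16 settings by threshold, GATA1's moved to 4103 or 4628 kb when weaker peaks were left out, and KLF1's to 150 kb in the upper 50% by fold. Searching the gene's strand only moved the share of all promoters for 12 of 14 motifs, with GGAA at 78.2%, CGGAAG at 14.04% and CCGGAAG at 7.23%.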

Other observations

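Peaks next along the chromosome from the LDB1, NFE2, GFI1B and ZFPM1 sites were at genes of other kinds. Upstream of the CBFA2T3 sites the next peaks had no other coding gene within 100 kb. The peak beyond LDB1, 273 kb away, was at NFKB2, an NF-kappaB subunit gene, 129 bp inside its end. Its fold was 6.94 and its pileup 45 fragments (interval 32.8 to 60.2), against 14 at LDB1. Beyond NFE2, at 103 kb, the peak was at SMUG1, a DNA repair glycosylase gene, with a fold of 6.16. Beyond GFI1B, at 343 kb, it was at SURF6, with a fold of 4.47 and a summit 3 bp from a GGAA in the SURF6 promoter window. That GGAA began at base 271 of the window and the summit was at base 277. The window also held CCGGAAG, which began at base 151. The ZC3H18 peak beyond ZFPM1 had a fold of 6.19, against 5.90 at ZFPM1.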
